A study of Drosophila melanogaster with 6 samples.

Results

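The 10 genes described here act in germ cell differentiation and meiosis of the fruit fly (Drosophila melanogaster): bam, bgcn, otu, ovo, mei-P26, c(3)G, ord, mei-W68, nod and ncd. They were chosen by symbol from the 15010 genes of the deposited expression table, and each had 1 row. RNA with polyA tails was sequenced in 6 libraries of adult progeny, with intestine as the stated tissue of each. For the 3 control libraries the mothers were MTD-GAL4/+ and were crossed with Oregon R. For the other 3, called InR-DN libraries below, the mothers were MTD-GAL4/InR-DN and were crossed in the same way. MTD-GAL4 is a transcriptional driver active in the female germline, shared by both kinds of mother, and InR-DN is a dominant-negative form of the insulin receptor. The comparison asks whether disturbed insulin signalling in the maternal germline leaves a trace in the progeny. A progeny fly can itself inherit the driver or the InR-DN transgene, so an effect through the mother and one of an inherited transgene cannot be told apart. The labels give neither the age nor the sex of the progeny, nor the number of animals in a library. They do not say whether replicates came from separate crosses, so the p-values reflect only how these samples vary, and that variation may be technical.

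In the fly ovary, germline stem cells divide to give daughters that start to differentiate when Bam is made and acts with its partner Bgcn. The daughter then divides into a cyst of connected cells, in which the synaptonemal complex forms between paired chromosomes and recombination starts from programmed DNA breaks. One cell becomes the oocyte, and its meiotic divisions run on a spindle that kinesin motors help to shape. These genes are best known from the germline.

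Values are in TPM, a unit of transcript abundance that is scaled by gene length and to the same total in every library. Levels can thus be compared between genes only as far as the exon length used matches the transcripts present. Whole reads were recovered from the TPM values for 14072 genes and summed to 31594628 to 42023856 per library. Markers of the midgut were abundant, the 5 enterocyte genes summing to 20090 to 21523 TPM in controls and to 14346 to 21272 TPM in the InR-DN libraries. Germline and oocyte markers were present too. The 6 listed (vas, nos, osk, orb, grk, bcd) each reached at least 1 TPM in every library and summed to 1116 to 1237 TPM in controls and 1112 to 1305 TPM in the InR-DN libraries. The 4 photoreceptor genes summed to 3167 to 4359 TPM over all libraries. Of 10 testis genes, 7 lay under 1 TPM in every library, among them aly, comr, can and dj. The other 3, topi, bol and twe, lay at up to 1.97, 14.5 and 103 TPM, and twe encodes a phosphatase that also acts in female meiosis. Transcripts of tissues other than intestine were thus present, and the levels below are levels of these libraries as a whole. In such bulk RNA, fewer cells of a type and less RNA per cell cannot be told apart.

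None of the 10 genes separated the InR-DN libraries from the controls. At least 1 TPM in at least 3 libraries was reached by 8 of them, all but bgcn and ord, and these 8 entered the test. No member passed an adjusted p of 0.05 in limma's moderated test on log2(TPM + 1) with Benjamini-Hochberg adjustment, where 0% of the 10816 genes tested passed. Without adjustment 0 of 8 lay under a p of 0.05, beside 3.15% of all genes, and groups did not overlap for 0 of 8, beside 6.36%. Log2 fold changes, InR-DN minus control, ran from -0.29 for bam to 0.18 for nod, with a median of 0.05 beside 0.01 over all genes tested. A mean in the InR-DN group above that of the controls was seen for 6 of 8, beside 54.6% of all genes. The 95% intervals reached -0.79 for bam and 0.73 for nod, so differences up to that size were not resolved, and for any 1 gene the smallest p that an exact permutation test allows is 0.1 with 3 libraries per group.

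**Figure D1:**
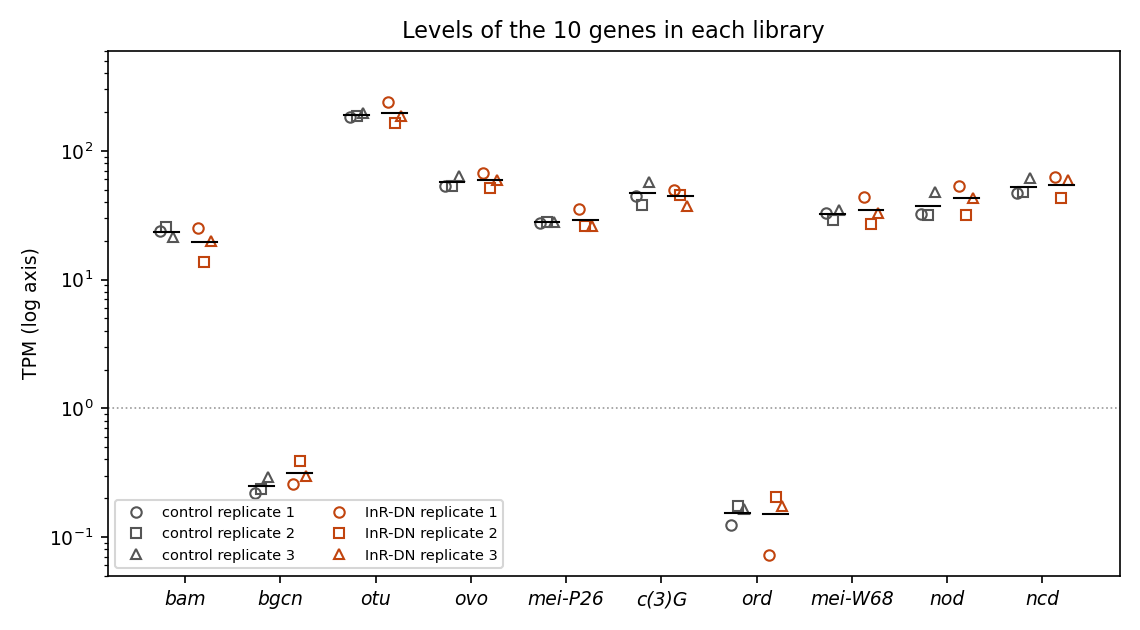
TPM on a log axis for each of the 10 genes in the 3 control libraries (grey) and the 3 InR-DN libraries (orange), with symbols for the replicate number, short lines for group means and a dotted line at 1 TPM. Of the 10 genes, 8 lay between 13.6 and 238 TPM, and bgcn and ord lay under 1 TPM in every library.

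The differentiation factors ranged from otu, the highest of the 10 genes, to bgcn, the second lowest. bam (FBgn0000158; arm 3R, 25243039 to 25245109, minus strand, BDGP6.54 as for all positions here), the switch for differentiation of the stem cell daughter, lay at 23.8, 25.5 and 21.4 TPM in control replicates 1 to 3. In InR-DN replicates 1 to 3 it lay at 25.4, 13.6 and 19.8 TPM. InR-DN replicate 2 was thus the lowest of all, while InR-DN replicate 1 lay within the control range. Means were 23.5 ± 2.03 TPM in controls and 19.6 ± 5.90 TPM in the InR-DN libraries (SD, n = 3 per group). On the log2 scale the groups differed by -0.29 ± 0.21 (fold change ± standard error, 95% interval -0.79 to 0.21, limma adjusted p = 1.00). That value rested on InR-DN replicate 2: without it the fold change was -0.06 on the same scale. Without InR-DN replicate 1 it was -0.49, with an unadjusted limma p of 0.0316 and an adjusted p of 1.00. In that fit 376 of 10816 genes had an unadjusted p under 0.05. The value of bam was the smallest unadjusted p of any tested member over all alternative settings. bam rested on 835, 1125 and 940 reads in control replicates 1 to 3 and on 852, 576 and 663 reads in InR-DN replicates 1 to 3.

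bgcn (FBgn0004581; arm 2R, 23853270 to 23858921), which encodes the partner protein of Bam, was close to absent. Control replicates 1 to 3 held 17, 23 and 28 reads of bgcn, or 0.220, 0.237 and 0.290 TPM, and InR-DN replicates 1 to 3 held 19, 36 and 22 reads, or 0.258, 0.387 and 0.300 TPM. Every library lay above the floor of 3 reads, which corresponds to 0.031 to 0.041 TPM for this gene and covers counting error only. The highest library of bgcn was InR-DN replicate 2, the one in which bam was lowest. With the filter removed, the log2 fold change of bgcn on log2(TPM + 1) was 0.07, and limma voom on the recovered reads gave 0.33 with a standard error of 0.25 (adjusted p = 1.00). In that limma voom fit across all genes 3.1% had an unadjusted p under 0.05, and bgcn was not among them. Per length, bam stood 35.1 to 108 times above bgcn within a library.

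mei-P26 (FBgn0026206; arm X, 9163255 to 9189309), a TRIM-NHL protein that restrains growth of the cyst and works with Bam and Bgcn, had the smallest SD relative to its mean in controls among the 10 genes. It lay at 27.7, 28.2 and 27.9 TPM there and at 35.2, 26.1 and 26.2 TPM in InR-DN replicates 1 to 3. InR-DN replicate 1 lay above all controls and the other two below all of them, so the groups overlapped. The log2 fold change of mei-P26 was 0.05 (standard error 0.13, 95% interval -0.26 to 0.35, limma adjusted p = 1.00). TPM depends on the exon length used, and for mei-P26 this was 23228 bases, the longest of the 10 genes. It drew 11951 reads in control replicate 1, beside 11740 for otu with 3420 exon bases, although its TPM was far lower. Which isoforms these reads came from cannot be read from a table with 1 value per gene.

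ovo (FBgn0003028; arm X, 5048273 to 5070929) encodes a zinc finger transcription factor of the female germline, and otu (FBgn0003023; arm X, 8485008 to 8489535), a deubiquitinase needed for egg development, is one of its known targets. ovo lay at 53.7, 53.6 and 64.1 TPM in control replicates 1 to 3 and at 67.6, 51.1 and 59.6 TPM in InR-DN replicates 1 to 3. otu lay at 185, 186 and 196 TPM in the controls and at 238, 166 and 186 TPM in the InR-DN libraries, the highest level of the 10 genes in every library. For both genes InR-DN replicate 1 was the highest and InR-DN replicate 2 the lowest of the 6, so the InR-DN group enclosed the controls. Log2 fold changes were 0.05 for ovo (standard error 0.12, 95% interval -0.25 to 0.35) and 0.04 for otu (standard error 0.13, 95% interval -0.27 to 0.35), each with a limma adjusted p of 1.00. The ratio of otu to ovo was the least variable of the 7 ratios computed, at 3.06 to 3.52 in the 6 libraries. It averaged 3.32 ± 0.227 in controls and 3.30 ± 0.201 in the InR-DN libraries (SD, n = 3 per group).

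The genes of chromosome pairing and cohesion differed from each other by level. c(3)G (FBgn0000246; arm 3R, 15789473 to 15792579) encodes the transverse filament of the synaptonemal complex. It lay at 44.8, 37.8 and 57.4 TPM in control replicates 1 to 3 and at 49.9, 45.7 and 37.1 TPM in InR-DN replicates 1 to 3. Control replicate 3 was the highest and InR-DN replicate 3 the lowest, extremes shared with no other tested member. c(3)G had a log2 fold change of -0.06 (standard error 0.17, 95% interval -0.48 to 0.35, limma adjusted p = 1.00). This turned to 0.09 when control replicate 3 was left out and to 0.05 when InR-DN replicate 3 was. corolla (CG8316 in the table), another protein of the synaptonemal complex, lay at 4.48, 4.08 and 5.74 TPM in the controls and at 3.67, 4.75 and 2.80 TPM in the InR-DN libraries. It too was highest in control replicate 3 and lowest in InR-DN replicate 3, and its log2 fold change was -0.29 (standard error 0.19, limma adjusted p = 1.00). The extremes of c(3)G and corolla were not shared by c(2)M and cona, other genes of the synaptonemal complex. c(2)M was highest in control replicate 2 and lowest in control replicate 3. For cona the highest was control replicate 1 and the lowest InR-DN replicate 1.

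ord (FBgn0003009; arm 2R, 23271257 to 23275536), which holds sister chromatids together in meiosis, had the lowest level of the 10. Control replicates 1 to 3 held 9, 16 and 15 reads of ord, or 0.124, 0.175 and 0.165 TPM. InR-DN replicates 1 to 3 held 5, 18 and 12 reads, or 0.0720, 0.205 and 0.174 TPM. The lowest and the highest value both fell in the InR-DN group. For ord, limma voom on the recovered reads gave a log2 fold change of -0.13, with a 95% interval of -1.15 to 0.88 (adjusted p = 1.00).

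mei-W68 (FBgn0002716; arm 2R, 19456170 to 19459523) is the fly Spo11, the enzyme that makes the DNA breaks of meiotic recombination. It lay at 32.8, 29.3 and 34.5 TPM in control replicates 1 to 3 and at 43.7, 27.3 and 32.8 TPM in InR-DN replicates 1 to 3. InR-DN replicate 1 was again the highest and InR-DN replicate 2 the lowest. The log2 fold change of mei-W68 was 0.08 (standard error 0.17, 95% interval -0.33 to 0.48, limma adjusted p = 1.00). mei-W68 shares more of its exons with another gene than the other 9 members do. Of its 2300 exon bases in the annotation, 806 (35.04%) are also exon of par-1, a kinase gene on the same strand that lay at 82.6 to 94.8 TPM. No source used here says how shared reads were counted, so in this shared part reads of mei-W68 and par-1 cannot be told apart. par-1 was also lowest in InR-DN replicate 2 and highest in InR-DN replicate 1, but over a narrower range than mei-W68.

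mei-P22 encodes the partner of Mei-W68 in making breaks and was far lower, at 3.30, 2.58 and 2.64 TPM in control replicates 1 to 3 and 4.87, 3.05 and 3.53 TPM in InR-DN replicates 1 to 3. The ratio of mei-W68 to mei-P22 was 9.93, 11.3 and 13.1 in the controls and 8.97, 8.94 and 9.30 in the InR-DN libraries. It was the 1 ratio of 7 for which the groups did not overlap, but the ratios were picked after their values were seen. Because mei-W68 shares exon bases with par-1, its level and this ratio may include reads of par-1. Over all ratios of mei-W68 to another tested gene, the groups did not overlap for 2.23%. For a ratio picked in this way, that share does not say how unusual it is. mei-P22 rested on 60 to 86 reads per library, and neither of its groups stood clear of the other (log2 fold change 0.31, standard error 0.17, limma adjusted p = 1.00).

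The kinesin genes were high in the same libraries as several other members. nod (FBgn0002948; arm X, 11580772 to 11585750), a chromosome-bound kinesin that keeps chromosomes without crossovers on the spindle, lay at 32.6, 31.6 and 48.2 TPM in control replicates 1 to 3. It lay at 53.4, 31.6 and 43.2 TPM in InR-DN replicates 1 to 3. Control replicate 3 stood with InR-DN replicates 1 and 3, and InR-DN replicate 2 with control replicates 1 and 2. For nod the log2 fold change was 0.18 (standard error 0.23, 95% interval -0.37 to 0.73, limma adjusted p = 1.00). Leaving out InR-DN replicate 1 brought it to 0.01 and leaving out InR-DN replicate 2 to 0.38. Leaving out control replicate 1, 2 or 3 gave 0.10, 0.07 and 0.37.

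ncd (FBgn0002924; arm 3R, 29804290 to 29807127), the minus-end directed kinesin that focuses the poles of the oocyte spindle, had the same 3 libraries at the top in the same order, InR-DN replicate 1, control replicate 3 and InR-DN replicate 3. ovo, otu and mei-W68 had these 3 at the top in this order too. For otu and mei-W68, however, InR-DN replicate 3 was nearly level with a control. For otu it lay at 186.4 TPM, beside 185.8 TPM in control replicate 2. For mei-W68 it lay at 32.80 TPM, beside 32.77 TPM in control replicate 1. How many of all genes tested had this order was not counted. ncd lay at 46.7, 47.7 and 61.6 TPM in control replicates 1 to 3. In InR-DN replicates 1 to 3 ncd lay at 62.1, 42.9 and 59.1 TPM. For ncd the log2 fold change was 0.07 (standard error 0.17, 95% interval -0.34 to 0.47, limma adjusted p = 1.00). Within a library ncd stood 1.16 to 1.51 times above nod. The ratio averaged 1.41 ± 0.119 in controls and 1.296 ± 0.115 in the InR-DN libraries (SD, n = 3 per group), and its lowest value fell in InR-DN replicate 1.

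**Figure D2:**
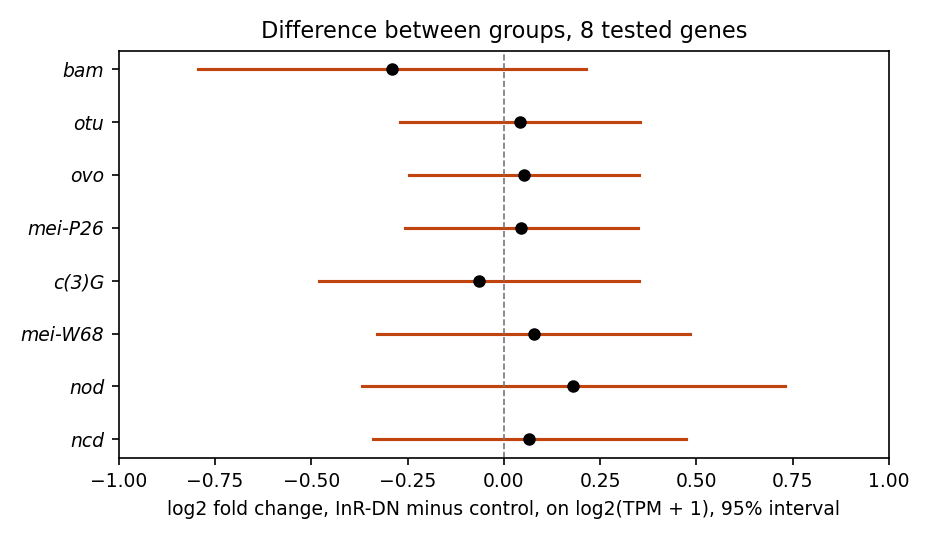
Log2 fold change (InR-DN minus control, on log2(TPM + 1), x axis) with its 95% interval from limma for the 8 tested genes, 3 libraries per group. Each interval includes 0, from -0.79 to 0.21 for bam to -0.37 to 0.73 for nod, the widest.

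By mean TPM over the 6 libraries the order was otu (193 ± 24.2), ovo (58.3 ± 6.57), ncd (53.3 ± 8.52), c(3)G (45.4 ± 7.65), nod (40.1 ± 9.53), mei-W68 (33.4 ± 5.69), mei-P26 (28.6 ± 3.38), bam (21.6 ± 4.498), bgcn (0.282 ± 0.0596) and ord (0.153 ± 0.0474), with SD over 6 libraries. otu stood clear of ovo, and mei-P26 of bam, bam of bgcn and bgcn of ord, with no overlap of their ranges. From ovo down to mei-P26, each gene's range overlapped that of the next. Still, ovo exceeded ncd and mei-W68 exceeded mei-P26 in all 6 libraries, whereas c(3)G exceeded nod in only 4. The level of mei-W68 may include reads of par-1. That of mei-P26, and so its place in this order, depends on the exon length used, 23228 bases. Among all genes of the table otu ranked 759 by mean TPM, bam 6828, bgcn 11936 and ord 12489.

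Most of the variation (sum of squares about the mean) of each of the 8 tested members lay within groups. This share is not adjusted for the number of libraries, so it does not show that replicates varied more than groups. The group means accounted for 24.2% of the variation of bam on log2(TPM + 1), 9.003% for nod and 1.73 to 3.52% for the other 6 tested members, beside a median of 7.69% over all genes tested. The highest library was InR-DN replicate 1 for 6 of 8 members, beside 38.8% of all genes, and the lowest was InR-DN replicate 2 for 6 of 8, beside 40% of all genes. Both held for 5 of 8 (otu, ovo, mei-P26, mei-W68 and ncd), beside 27.1% of all genes. The ratio of the highest to the lowest library had a median of 1.497 over the 8 members and 1.33 over all genes tested.

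**Figure D3:**
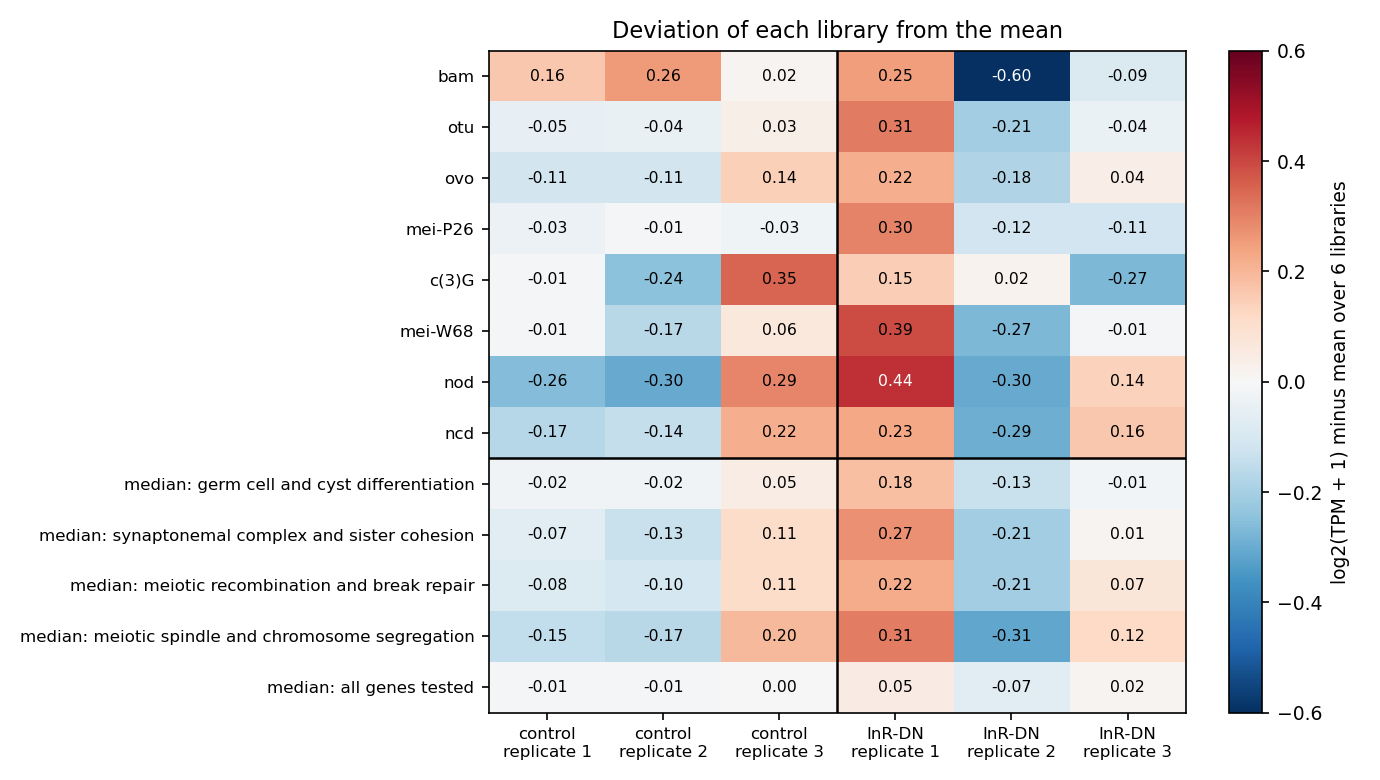
Deviation of log2(TPM + 1) in each library (columns) from the mean over 6 libraries, for the 8 tested genes (upper rows) and as medians over the tested genes of 4 pathway lists and over all genes tested (lower rows). otu, ovo, mei-P26, mei-W68, nod and ncd are highest in InR-DN replicate 1, at 0.22 to 0.44, while bam reaches -0.60 in InR-DN replicate 2 and c(3)G is highest in control replicate 3, at 0.35.

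Markers of other tissues also differed between these libraries, though not all in the same order. In InR-DN replicate 1 the 5 enterocyte genes summed to 14346 TPM, the lowest of the 6 libraries, beside 18503 TPM in InR-DN replicate 2 and 21272 TPM in InR-DN replicate 3. The 4 photoreceptor genes were also lowest in InR-DN replicate 1 (3167 TPM) and highest in InR-DN replicate 2 (4359 TPM), the opposite order to most members. The 5 midgut progenitor and enteroendocrine genes (esg, Dl, pros, Tk, AstC) had another order. Their sum was highest in control replicate 1 (118.1 TPM) and lowest in InR-DN replicate 2 (101.3 TPM), with 110.9 TPM in InR-DN replicate 1. Germline and oocyte markers summed to 1305 TPM in InR-DN replicate 1, the highest, but to 1123 and 1112 TPM in InR-DN replicates 2 and 3, close to control replicates 1 and 2 at 1116 and 1121 TPM. osk, at 751 to 866 TPM, made up most of that sum. vas (61.0 and 49.4 TPM), nos (190.2 and 114.9 TPM) and bcd (61.5 and 32.6 TPM) were each highest in InR-DN replicate 1 and lowest in InR-DN replicate 2, as were 5 of the 8 tested members. orb and grk were highest in InR-DN replicate 2, at 97.7 and 30.8 TPM. The 5 eggshell and follicle cell genes had no single order. Cp36 lay at 0.193, 467 and 498 TPM in control replicates 1 to 3 and 446, 27.7 and 1.17 TPM in InR-DN replicates 1 to 3, with Cp38 lowest in the same library. Vm26Aa lay at 83.0, 295 and 14.4 TPM in the controls and 69.1, 317 and 215 TPM in the InR-DN libraries, and Vm34Ca was likewise lowest in control replicate 3 and highest in InR-DN replicate 2. Fas3 stayed between 16.7 and 23.9 TPM. The part of tissue content in the members' values was not tested. Set against the mean of the 6 germline and oocyte markers in each library, bam had a log2 fold change of -0.31, nod of 0.16 and the other 6 of -0.08 to 0.06, with no member past the threshold.

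Beyond the members, 4 lists of genes of the same processes showed no calls either. Differentiation genes of the germ cell and cyst had 15 tested of 15 listed, with 8 higher and 7 lower means in the InR-DN libraries and a median log2 fold change of 0.00. Their smallest unadjusted p-values were those of the splicing factor gene snf (0.15), tut (CG32364 in the table; 0.22) and the RNA-binding protein gene Rbp9 (-0.12), values being log2 fold changes. For the synaptonemal complex and sister cohesion 11 of 13 listed were tested, 8 higher and 3 lower with a median of 0.08, led by corolla (-0.29), cona, which also builds the complex (-0.30), and the cohesin loader gene Nipped-B (0.20). Meiotic recombination and break repair had 22 tested of 24, 17 higher and 5 lower with a median of 0.06, led by vilya (CG2709; -0.42), mei-P22 (0.31) and nenya (CG31053; 0.27). vilya and nenya encode RING proteins of the crossover pathway. Meiotic spindle and chromosome segregation genes had 19 tested of 19, 19 higher and 0 lower with a median of 0.09, led by ial, the Aurora B kinase gene (0.27), ald, the Mps1 kinase gene (0.15), and mei-38 (0.17). Of all genes tested, 54.6% had a higher mean. In each list 0 genes passed the limma adjusted p of 0.05, beside 0% of all genes tested. An unadjusted limma p under 0.05 was reached by 0 genes of each list, beside 3.15%, and 0 had groups without overlap, beside 6.36%.

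The direction of the spindle list turned when 1 library was left out. Without InR-DN replicate 1, 3 of its 19 genes had higher means and the median was -0.04, while without InR-DN replicate 2 all 19 did and the median was 0.25. The other lists turned in the same way without InR-DN replicate 1, to medians of -0.08 for differentiation, -0.04 for the synaptonemal complex and -0.04 for recombination. The median of all genes tested turned too, from 0.01 to -0.03, so the turn was not particular to these lists. Of the 8 members, 1 had a higher mean without that library, with a median of -0.10, beside 38.9% of all genes tested. Without InR-DN replicate 2 the medians were 0.16 for the members, 0.08 for differentiation, 0.21 for the synaptonemal complex and 0.18 for recombination. Over all genes tested the median was then 0.04, with 59.2% higher. Leaving out control replicate 1, 2 or 3 gave the spindle list medians of 0.03, 0.03 and 0.23, and leaving out InR-DN replicate 3 gave 0.04.

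**Figure D4:**
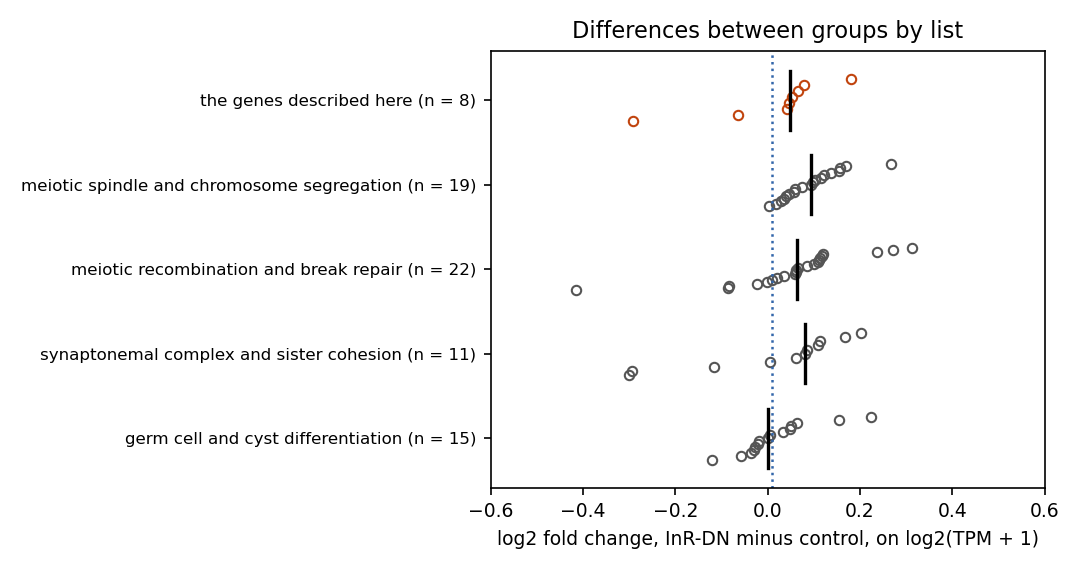
Log2 fold change (InR-DN minus control, on log2(TPM + 1), x axis) of each tested gene in 4 pathway lists (grey circles) and of the 8 tested genes described here (orange circles), with medians as black bars and the median of all genes tested as a dotted blue line. The spindle list lies wholly above 0, up to 0.27, and the members run from -0.29 to 0.18.

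For each tested member, 1 gene of the 10815 others had the closest profile over the 6 libraries, measured as the root mean square difference of centred log2(TPM + 1). ncd was closest to trem, a gene needed for meiotic DNA breaks that also stands in the recombination list, with a difference of 0.01. trem lay at 25.9, 25.97 and 34.1 TPM in control replicates 1 to 3 and at 34.1, 23.7 and 32.8 TPM in InR-DN replicates 1 to 3, the order of ncd with InR-DN replicate 1 and control replicate 3 level at the top. nod was closest to the small heat shock protein gene Hsp27 (0.03), which lay at 263, 243 and 378 TPM in controls and at 421, 249 and 357 TPM in the InR-DN libraries. ovo was closest to CG43343 (0.01), otu to CG33172 (0.02), mei-W68 to chrb (0.02) and mei-P26 to CG31998 (0.03). For bam and c(3)G the closest genes lay further off, Cpr100A at 0.08 and CR43960 at 0.10. The difference is not scaled to a gene's own spread. That SD on log2(TPM + 1) was 0.30 for bam and for nod, 0.21 for c(3)G and 0.14 for mei-P26. The next gene was nearly as close for ncd (CG14561, 0.0113 beside 0.0097 for trem) and ovo (RanGAP, 0.0146 beside 0.0145). The same held for otu (MICAL-like, 0.0228 beside 0.0218), while for bam the next gene lay further off (CG5810, 0.111 beside 0.077). With 6 libraries and many genes, a close profile is a description of these libraries only.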

How the data were processed

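The authors deposited 1 table of TPM values with 15010 genes and 6 libraries, per the file headers. Its columns each sum to 1000000. The submitters' processing notes name TopHat and edgeR but no version or role, and no source used here gives the genome build, annotation, read counter or use of strand. RNA was extracted with Trizol or Tripure, per the labels' protocols. A column's group letter and replicate number gave its sample.

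Positions and exon lengths came from the BDGP6.54 annotation, in which 14857 symbols were found. Multiplied by exon length, 94.7% of these gave whole reads in every library (relative tolerance 1e-06). bam did so at a length of 1894 bases, in place of 1946 in the annotation. Apart from mei-W68, members share at most 11.7% of their exon bases with another gene, on the opposite strand. No 2 libraries matched within sampling noise (chi-square per degree of freedom 21.5 or more).

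Groups were compared across all genes with limma 3.58.1 (R 4.3.3), using log2(TPM + 1), a trended prior variance and no covariate. Genes needed at least 1 TPM in at least 3 libraries (10816 did), and p-values were adjusted by Benjamini-Hochberg over all of them, with calls at 0.05. The fit was also run on simulated data with larger changes than those of the members, so that run does not bear on differences of their size. Fold changes on this scale understate the change of low genes. Other settings tried were pseudocounts (0.1 and 5), the filter (none, or 5 TPM), the scaling (median of ratios, quantiles, or the mean of the germline markers), an untrended prior, a replicate block, and each library left out. limma voom on the reads (at least 10 in at least 3 libraries), and the lists without each library, were added after seeing the data. Members and lists were chosen with earlier results of these data known. Named genes were all members, most of the listed markers, the 3 genes of each list with the smallest unadjusted p and each member's nearest gene. The ratios and par-1 were picked after their values were seen.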

Additional observations from a re-analysis of the deposited data

How the results depend on the processing

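No member passed the adjusted p of 0.05 under any of the 16 alternatives, and bam and nod kept their sign in all of them. Leaving out 1 library turned the sign of the other 6. Without InR-DN replicate 1 the log2 fold change was -0.10 for otu, -0.044 for ovo, -0.093 for mei-P26, -0.099 for mei-W68 and -0.034 for ncd. ncd was at -0.0043 without control replicate 1. For c(3)G the value was 0.093 when control replicate 3 was left out and 0.053 when InR-DN replicate 3 was. Over the 6 libraries left out in turn, otu ran from -0.10 to 0.16, ovo from -0.044 to 0.15, mei-P26 from -0.093 to 0.12, c(3)G from -0.20 to 0.093, mei-W68 from -0.099 to 0.23, ncd from -0.034 to 0.23, bam from -0.49 to -0.063 and nod from 0.0079 to 0.38. Over all genes 0 passed in the fit reported above (341 with an unadjusted p under 0.05), 1 with a pseudocount of 0.1, 1 relative to germline markers, and 0 to 3 with a library left out. The cause was not tested. With the replicate block 0 genes passed and bam was again at -0.29. Same-numbered libraries did not deviate together, at correlations of -0.41, -0.18 and -0.13 across genes, beside -0.15 to 0.31 for unlike-numbered ones. Deviations from a group mean depend on each other, so these values cannot show whether same-numbered samples were prepared together. bgcn and ord rested on 5 to 36 reads per library, and their standard errors on recovered reads were 0.25 and 0.43, beside 0.22 for nod.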
